A study of Homo sapiens with 20 samples.

Results

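The genes described here are 54 transcription factor genes of embryonic patterning, chosen as a list of symbols: paired-box (PAX), SOX, forkhead (FOX), T-box (TBX), GATA, homeobox, basic helix-loop-helix, ZIC and AP-2 genes. Of the 54, 53 were matched by Ensembl identifier in all 20 libraries, out of 57736 gene identifiers in the drug tables and 53150 in the excision tables. LHX1 was not matched and was not analysed here. The list carries the name "Polycomb-repressed", but the Polycomb mark was not measured here and several members were well transcribed in every library, so they are called developmental transcription factor genes throughout.

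The libraries were stranded total RNA-seq of K562, a human erythroleukemia cell line, with 2 biological replicates in each of 10 groups. In the drug experiment, cells received 5 µM GSK343, a small-molecule inhibitor of the methyltransferase EZH2, for 72 h, 100 µM X5050, a small molecule that lowers the repressor REST, for 72 h, or both drugs for 8, 24 or 72 h. Their control received DMSO, the solvent, for 72 h. No DMSO group of 8 or 24 h was analysed here, so time in culture and time with the drugs cannot be told apart at those times. In the excision experiment, CRISPR removed silencer 1 (S1KO), silencer 2 (S2KO) or both silencers (DKO), and the control carried the empty vector (EV). Whether an excised line is 1 clone is not given in the sources used here, and p-values measure the spread between libraries.

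Polycomb repressive complex 2 (PRC2) is built on EED, SUZ12 and either EZH2 or its paralog EZH1, and methylates histone H3 at lysine K27. Genes of embryonic lineage choice, whose promoters tend to lie in CpG islands, are the best known carriers of this mark in differentiated cells, where PRC1 complexes bind it and KDM6A and KDM6B remove it. In a blood cell line, most of these factors belong to other lineages, such as nervous system, limb, heart, gut or neural crest.

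To show the kind of sequence these genes start from, the 250 bases upstream of the annotated start are printed for PAX5 and GATA6, which had the largest log2 fold changes among the members called higher with GSK343, and for TBX1 and PAX6, which had high counts with DMSO and did not pass the test with GSK343. The sequences are from RefSeq, build GRCh38.p14, written 5′ to 3′ on the gene's strand, with each CG in capitals. EN1 also met the rule. The positions are chr9:37034269-37034518 on the minus strand for PAX5, chr18:22169339-22169588 on the plus strand for GATA6, chr22:19756453-19756702 on the plus strand for TBX1 and chr11:31817962-31818211 on the minus strand for PAX6.
PAX5: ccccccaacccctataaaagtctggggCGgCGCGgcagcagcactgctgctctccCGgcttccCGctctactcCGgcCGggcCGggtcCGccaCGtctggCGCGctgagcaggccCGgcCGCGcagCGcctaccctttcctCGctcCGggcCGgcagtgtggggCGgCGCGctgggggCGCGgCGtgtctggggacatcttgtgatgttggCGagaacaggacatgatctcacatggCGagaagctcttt
GATA6: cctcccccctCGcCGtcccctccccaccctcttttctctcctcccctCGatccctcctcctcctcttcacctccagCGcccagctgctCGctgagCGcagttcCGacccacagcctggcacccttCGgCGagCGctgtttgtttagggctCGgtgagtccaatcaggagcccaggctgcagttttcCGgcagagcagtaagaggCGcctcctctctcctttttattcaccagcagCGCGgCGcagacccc
TBX1: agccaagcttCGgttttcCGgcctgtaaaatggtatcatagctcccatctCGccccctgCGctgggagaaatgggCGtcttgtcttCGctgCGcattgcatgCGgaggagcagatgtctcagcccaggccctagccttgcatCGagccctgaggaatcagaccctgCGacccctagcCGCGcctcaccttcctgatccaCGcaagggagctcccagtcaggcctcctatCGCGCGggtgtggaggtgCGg
PAX6: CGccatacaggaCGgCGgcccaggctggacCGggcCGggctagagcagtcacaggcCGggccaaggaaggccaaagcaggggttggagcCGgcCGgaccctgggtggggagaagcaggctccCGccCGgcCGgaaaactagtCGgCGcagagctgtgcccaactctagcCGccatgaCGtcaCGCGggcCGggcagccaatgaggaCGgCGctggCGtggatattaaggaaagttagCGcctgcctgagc
The printed windows hold 27 CGs for PAX5, 16 for GATA6, 17 for TBX1 and 22 for PAX6. Windows of 300 bases, 250 before to 50 after the start, were matched by symbol for 36 of the 53 members. They held a median of 25.5 CGs, against 14 over all 35116 promoters of the table, and 29 of the 36 (80.6%) held at least 20, against 41.2% of all promoters. On both strands, TATAAA was present in GSC, PAX5 and TFAP2A, 3 of the 36 (8.33%), against 11.5% of all promoters. GGACAG, a part of the element that REST binds, was present in SOX1 alone, 1 of the 36 (2.78%), against 20.5% of all promoters. These letters describe the windows and show no site.

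Of the 53 members, 9 were silent everywhere, with fewer than 3 counts summed over each experiment. These were PAX2 (kidney and optic stalk), SOX1 (neural plate), SOX17 (endoderm), FOXF1 (lung and gut mesenchyme), NKX2-5 (heart), SIX2 (nephron progenitors), DLX5 (branchial arches and bone), IRX3 (neural tube) and GSC (goosecoid, the organizer). SOX1, FOXF1, NKX2-5, SIX2, DLX5 and IRX3 had 0 counts in every library, and 12 members stayed under 0.1 CPM (counts scaled to library size) in every library. A further 11, PAX7, SOX2, SOX9, FOXC1, TBX2, MSX2, ALX1, LHX2, NKX6-1, OTX2 and HAND1, had some counts but too few for a test. At the other end, 27 members reached 1 CPM in at least 1 library, 31 were tested in the drug experiment, 27 in the excision experiment and 25 in both. A count of 0 limits a transcript to 3 counts in a library and does not show that it is absent.

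**Figure D1:**
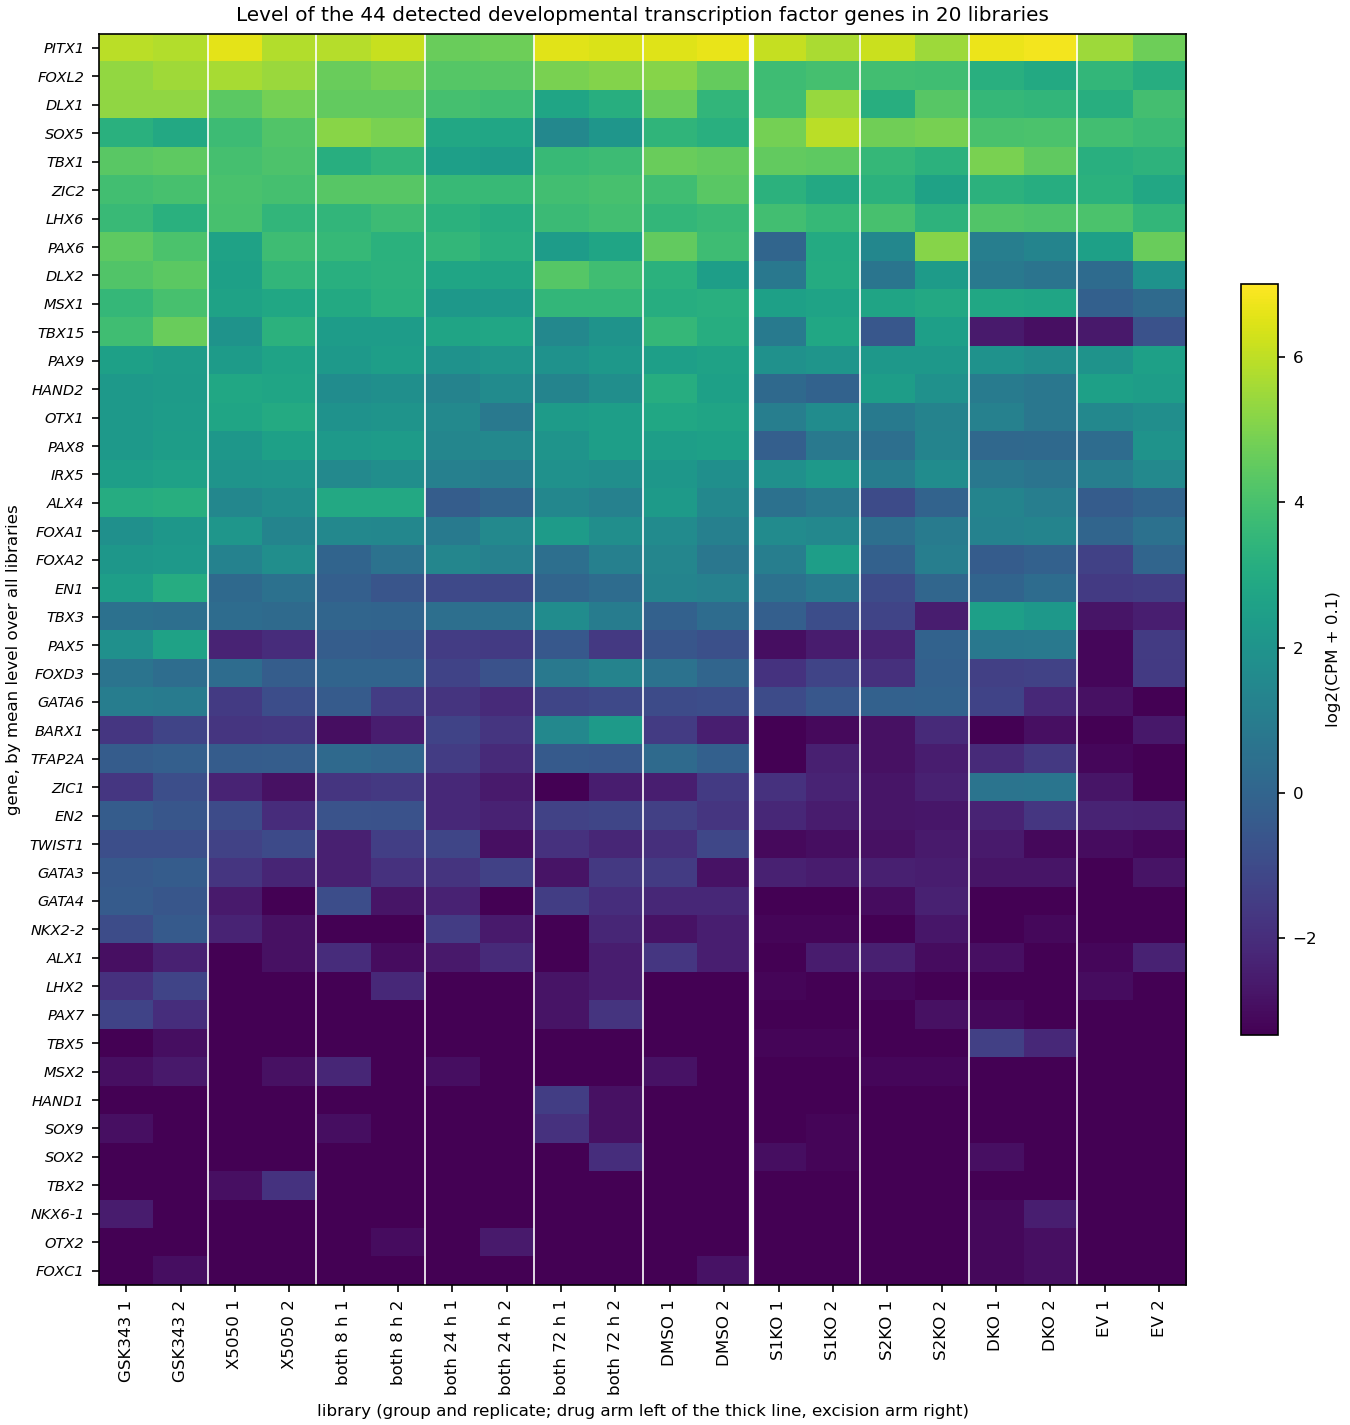
Each row is 1 of the 44 members that were not silent and each column 1 of the 20 libraries, with the shade giving log2(CPM + 0.1). PITX1 is high in every column, from 24.8 to 112 CPM, while the lower rows are near 0 with single patches, such as BARX1 in both libraries with both drugs for 72 h.

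On a scale per transcript length, TPM in the excision experiment, PITX1, a hindlimb and pituitary homeobox factor, averaged 14.8 TPM in EV cells. PAX6, the eye and forebrain regulator, averaged 7.93 TPM, TBX1, a pharyngeal T-box factor, 5.52 TPM, and DLX1, a forebrain homeobox factor, 5.08 TPM. PAX5, the B cell regulator, averaged 0.0144 TPM and GATA6, an endoderm and heart factor, 0.00445 TPM. The members thus ran from well-transcribed genes to genes at the edge of detection in the same control cells. PITX1 took the most counts of the members in 19 of the 20 libraries, and SOX5 did in S1KO replicate 2.

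Total counts were 22925617 to 38177320 per drug library and 55913561 to 98507788 per excision library. Erythroid markers were counted in every library, at levels that differed by gene. GATA1 lay between 71.1 and 220 CPM over all libraries. In the drug libraries HBZ lay between 0.0617 and 2.67 CPM, and EPOR and KLF1 went down to 6.85 and 6.98 CPM. In the excision experiment, replicate 2 lay more than 1 log2 unit above replicate 1 for 7 members in EV cells (PAX5, PAX6, PAX8, FOXA2, FOXD3, TBX15 and DLX2) for 7 in S1KO cells and for 9 in S2KO cells, so replicates are given singly below. The excised intervals and the enzyme activities are not read by gene counts, so neither the excisions nor the inhibition was checked here.

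EZH2, the target of GSK343, had 141 and 114 CPM with GSK343, against 163 and 122 CPM with DMSO, a log2 fold change of -0.15 ± 0.13 (SE, n = 2 each; edgeR, adjusted p = 0.514). EZH1 fell to 42 and 31.3 CPM with GSK343, against 86 and 61.3 CPM with DMSO, a log2 fold change of -1.01 ± 0.16 (edgeR, adjusted p = 0.000669). With both drugs for 24 h, EZH2 had 247 and 245 CPM, against 163 and 122 CPM with DMSO, and rose by 0.79 ± 0.13 log2 (edgeR, adjusted p = 0.000198). Among 13 PRC2 genes in the tables, 10 rose and 1 fell at 24 h with both drugs, when 22% of all genes rose and 21.1% fell. With GSK343, when 9.12% of all genes rose and 3.31% fell, 0 of the 13 rose and 1 fell; edgeR without adjustment gave 1 higher and 3 lower there and DESeq2 with adjustment 0 higher and 1 lower. Among 13 genes of PRC1 and the H3K27 demethylases, 1 rose and 1 fell with GSK343. With both drugs for 72 h 6 rose and 0 fell, when 19.2% of all genes rose and 17.3% fell. These counts of the 13 were the same in DESeq2. KDM6A had 127 and 110 CPM with both drugs for 72 h, against 63.3 and 74.7 CPM with DMSO, and rose by 0.78 ± 0.12 log2 (edgeR, adjusted p = 0.000118).

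Across the 31 tested members, GSK343 for 72 h raised 9 and lowered 1 against DMSO, while 9.12% of all 19224 genes tested rose and 3.31% fell (12.4% in either direction). The 9 were PAX5, GATA6, EN1, DLX2, ALX4, FOXA2, DLX1, MSX1 and FOXL2, and PITX1 fell. The members' median log2 fold change was 0.59, against 0.00 over all genes. Members are rich in G and C, with a median of 57.2% against 48.7% over all tested genes. After removal of the trend of fold change with GC content 6 rose and 4 fell, with a median of 0.39, against -0.15 over all genes. Over all 19224 genes that removal gave 1422 higher and 2410 lower, against 1754 and 636 as counted. Only the call of PAX5 held whichever 1 library was left out, and the fewest members were called without GSK343 replicate 2. Over all genes, too, fewer passed without either GSK343 replicate or without DMSO replicate 2, fits that leave 1 library in a group.

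X5050 alone raised FOXL2 and SOX5 and lowered TBX1 and PAX5 among the 31, with 5.34% of all genes risen and 7.23% fallen (12.6% either way). Both drugs for 72 h raised BARX1, TBX3 and DLX2 and lowered SOX5, TBX1, HAND2, PAX6, TBX15, DLX1 and EN1, with 19.2% of all genes risen and 17.3% fallen. That count of members, 10 of 31, did not exceed the 36.4% of all genes called in either direction, and it was 4 without replicate 1 of both drugs for 72 h. After removal of the GC trend, 3 rose and 12 fell, while 2849 of all 19224 genes rose and 4508 fell. None of the 4 calls with X5050 held whichever 1 library was left out, and 1 was left without DMSO replicate 2.

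**Figure D2:**
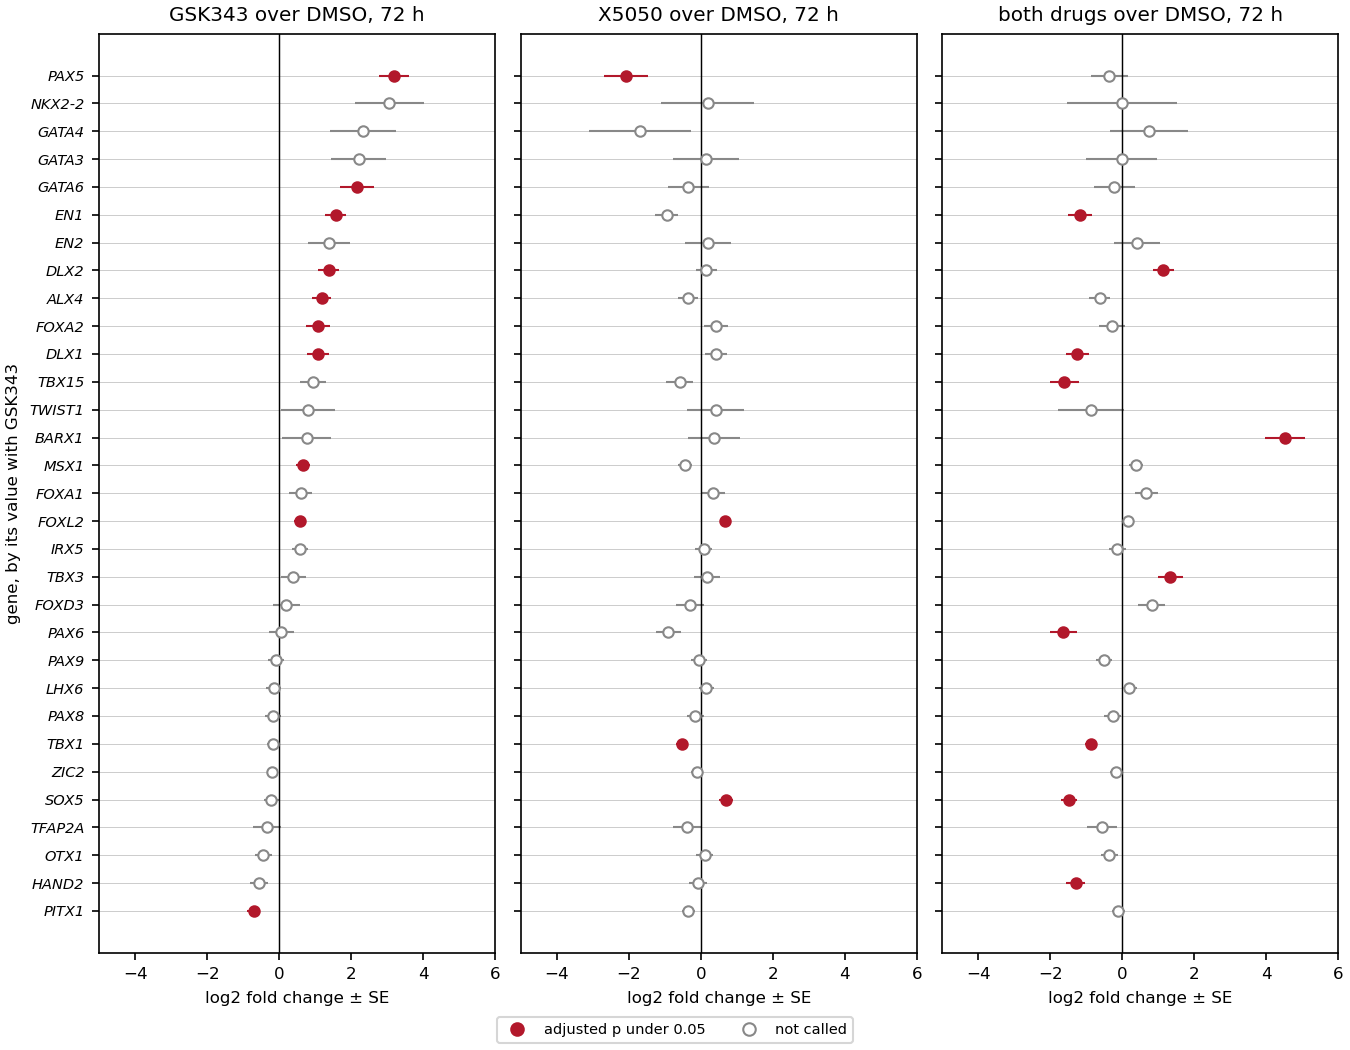
Points are the log2 fold changes of the 31 tested members at 72 h, with GSK343, X5050 or both drugs over DMSO, bars are 1 standard error (n = 2 libraries a group), and filled points passed an adjusted p of 0.05. PAX5 lies at 3.18 with GSK343 and at -2.06 with X5050, and BARX1 lies at 4.51 with both drugs; the point of NKX2-2 rests on 3 counts in the DMSO libraries.

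At 8 h with both drugs, 2 members rose (SOX5 and ALX4) and 5 fell (TBX1, EN1, HAND2, OTX1 and PITX1), with 21.8% of all genes risen and 21.2% fallen (43% either way). After removal of the GC trend, 4 rose and 4 fell, while 3756 of all 19224 genes rose and 3340 fell. The OTX1 call at 8 h was lost with that removal (adjusted p = 0.0907) and without replicate 1 at 8 h (0.0927). At 24 h, 0 rose and 13 fell, with 22% of all genes risen and 21.1% fallen (43.1% either way). The 13 were TBX1, PITX1, EN1, ALX4, OTX1, HAND2, MSX1, TFAP2A, PAX8, IRX5, FOXD3, FOXL2 and ZIC2. Without adjustment, edgeR gave 0 higher and 17 lower at 24 h, and DESeq2 with adjustment gave 0 higher and 14 lower. The members' median log2 fold change at 24 h was -0.86, against -0.02 over all genes, and it was -0.50 with DESeq2, -0.47 without the count filter and -0.64 without replicate 2 at 24 h. Between 24 and 72 h with both drugs, 16 rose and 2 fell, with 24.1% and 21.8% of all genes (45.9% either way). SOX5 and DLX1 were the 2 that fell. Removal of the GC trend gave 6 risen and 4 fallen members, with 2540 of all 19224 genes risen and 4337 fallen. With that trend removed, the rises of OTX1, PAX8, EN1, DLX2, LHX6, TBX3, FOXA1 and IRX5 no longer passed the test, and the values of FOXL2 and TBX1 were below 0. The time comparisons share libraries, so a low value at 24 h enters both.

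The interaction at 72 h compares the effect of both drugs with the sum of the single effects on the log2 scale. For 9 of 31 members it passed the test, 2 above the sum (BARX1 and PITX1) and 7 below it (SOX5, DLX1, FOXL2, EN1, ALX4, FOXA2 and TBX15), with 9.75% of all genes above and 9.04% below (18.8% either way). Set directly against GSK343 alone, both drugs gave 3 members higher and 15 lower, with 18.9% and 20.5% of all genes (39.4% either way), and the members' median was -0.71. BARX1, PITX1 and TBX3 were higher, and EN1, PAX5, ALX4, DLX1, SOX5, TBX15, GATA6, TBX1, PAX6, FOXA2, NKX2-2, IRX5, GATA3, HAND2 and FOXL2 were lower. Of these 18 calls 10 held whichever 1 library was left out, and 10 members were called without replicate 1 of both drugs. BARX1 alone of the 3 higher held: leaving out replicate 1 of both drugs gave adjusted p of 0.112 for PITX1 and 0.324 for TBX3, the GC correction gave 0.182 for PITX1, and DESeq2 gave 0.0958 for TBX3. Among the lower ones, the same omission gave 0.232 for HAND2, 0.228 for FOXL2 and 0.0721 for IRX5, with 0.0668 for FOXA2, and omission of GSK343 replicate 2 gave 0.132 for HAND2, 0.275 for FOXL2 and 0.128 for IRX5. This comparison and that of GSK343 with DMSO share the GSK343 libraries. Against X5050 alone, both drugs gave 5 higher and 4 lower, with 17.5% and 12.8% of all genes (30.3% either way). Removal of the GC trend gave 1 higher and 9 lower, with 2304 of all 19224 genes higher and 4134 lower. The 5 were BARX1, MSX1, TBX3, DLX2 and FOXD3, and the 4 were SOX5, HAND2, DLX1 and FOXL2. BARX1, SOX5, HAND2 and DLX1 held whichever 1 library was left out. Adjusted p with X5050 replicate 1 left out was 0.0707 for MSX1, 0.077 for TBX3, 0.212 for DLX2 and 0.0971 for FOXL2, and with X5050 replicate 2 left out it was 0.255 for FOXD3. The GC correction gave 0.103 for MSX1, 0.0535 for TBX3, 0.0877 for DLX2 and 0.163 for FOXD3, and DESeq2 gave 0.107 for FOXD3 and 0.0511 for TBX3.

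Among the PAX genes, PAX5 responded most to GSK343. It had 3.58 and 6.08 CPM with GSK343, 0.102 and 0.146 CPM with X5050, 0.613 and 0.229 CPM with both drugs for 72 h, and 0.578 and 0.48 CPM with DMSO. Both GSK343 libraries lay above all others in the drug experiment and both X5050 libraries below all others. PAX5 rose by 3.18 ± 0.42 log2 with GSK343 over DMSO (edgeR, adjusted p = 0.000134), and both drugs over GSK343 alone gave a log2 fold change of -3.54 ± 0.43 (adjusted p = 1.22e-05). With X5050 it fell by 2.06 ± 0.61 on the log2 scale (adjusted p = 0.038). That call was lost when any of the 4 libraries was left out, with adjusted p of 0.0903 and 0.0601 for DMSO replicates 1 and 2 and of 0.244 and 0.0888 for X5050 replicates 1 and 2. The interaction for PAX5 was -1.48 ± 0.84 and did not pass the test (adjusted p = 0.244). Of 9 B cell markers, MS4A1 and BLNK were at 0 in every library, and their summed level was 6.23 and 7.38 CPM with GSK343, against 6.4 and 6.08 CPM with DMSO.

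PAX6 had 5.17 and 6.68 CPM with both drugs for 72 h, against 23.2 and 13.7 CPM with DMSO, and 21.7 and 16.7 CPM with GSK343. The combined-drug libraries lay below both other groups. It fell by 1.63 ± 0.37 on the log2 scale against DMSO (edgeR, adjusted p = 0.00537) and was at -1.69 ± 0.37 against GSK343 alone (adjusted p = 0.0041). The first of these calls was lost without DMSO replicate 1 (adjusted p = 0.0603) or without replicate 1 of both drugs (adjusted p = 0.0581). In the excision experiment PAX6 had 0.943 and 7.75 CPM in S1KO, 2.66 and 35.1 CPM in S2KO, 2.02 and 2.39 CPM in DKO, and 5.78 and 24.9 CPM in EV cells, and no excised group differed by the test (in DKO, -2.80 ± 1.42 log2, adjusted p = 0.289). DKO lay below EV, and S1KO and S2KO overlapped with EV because their replicates lay far apart.

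PAX8, a thyroid and kidney factor, had 2.59 and 2.74 CPM with both drugs for 24 h, against 5.41 and 5.76 CPM with DMSO, and fell by 1.07 ± 0.24 on the log2 scale (edgeR, adjusted p = 0.00215). That change was -0.07 with unstranded counts (adjusted p = 0.793), which add the reads of the antisense gene PAX8-AS1. PAX9, a tooth and thymus factor, ranged from 3.2 to 6.33 CPM over the 20 libraries and was called in no comparison. PAX7, a muscle stem cell factor, had 14 counts with GSK343, against 0 with DMSO, and it was at 0 with X5050. With DMSO set to a limit of 3 counts the ratio was 3.79, which leaves out the counting error of the 14.

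The GATA genes had few counts. GATA6 had 1.98 and 1.85 CPM with GSK343, 0.237 and 0.439 CPM with X5050, 0.351 and 0.382 CPM with both drugs for 72 h, and 0.413 and 0.44 CPM with DMSO. Only the GSK343 libraries exceeded 1 CPM, and GATA6 rose by 2.16 ± 0.48 log2 over DMSO (edgeR, adjusted p = 0.00811), a call lost without GSK343 replicate 2 (adjusted p = 0.0532). With both drugs it was lower than with GSK343 alone, at -2.37 ± 0.49 (adjusted p = 0.00126). GATA3, a T cell and neuronal factor, had 0.638 and 0.71 CPM with GSK343, against 0.248 and 0.04 CPM with DMSO, and GATA4, a heart and endoderm factor, 0.673 and 0.586 CPM with GSK343, against 0.124 and 0.12 CPM with DMSO. Those groups did not overlap, and the changes did not pass the test (adjusted p = 0.0702 for GATA3 and 0.116 for GATA4). With both drugs for 72 h GATA3 had 0.0438 and 0.229 CPM and was below GSK343 alone by the test (-2.22 ± 0.76 log2, adjusted p = 0.0296; 0.228 without replicate 1 of both drugs, 0.0798 without GSK343 replicate 1, 0.123 without GSK343 replicate 2 and 0.104 by DESeq2).

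Of the forkhead genes, FOXA2, an endoderm pioneer factor, had 4.36 and 4.57 CPM with GSK343, 1.27 and 2.14 CPM with both drugs for 72 h, and 2.6 and 1.6 CPM with DMSO. The GSK343 libraries were the highest, and FOXA2 rose by 1.09 ± 0.33 log2 (edgeR, adjusted p = 0.0432); the call was lost without DMSO replicate 2 (adjusted p = 0.266), GSK343 replicate 1 (0.119) or GSK343 replicate 2 (0.19), and also with the GC trend removed (0.0631) and with unstranded counts (0.0752). The interaction was -1.80 ± 0.48 (adjusted p = 0.0158), and adjusted p was 0.0791 without replicate 1 of both drugs and 0.0588 without X5050 replicate 2. An annotated gene, AL121722.1, overlaps FOXA2 on the same strand, so reads from the part they share cannot be told apart.

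FOXL2, an ovary factor, was the forkhead gene with the most counts, at 40.4 and 46 CPM with GSK343, 49.9 and 43 CPM with X5050, 30.6 and 33.7 CPM with both drugs for 72 h, and 34.4 and 23.3 CPM with DMSO. Each single drug lay above DMSO, while the combined-drug libraries lay within the DMSO range. GSK343 raised it by 0.58 ± 0.16 log2 (edgeR, adjusted p = 0.028), X5050 by 0.69 ± 0.16 (adjusted p = 0.012), and the interaction was -1.11 ± 0.23 (adjusted p = 0.00342), a call that held without any 1 library. The rise with GSK343 was lost without DMSO replicate 2 (adjusted p = 0.25), GSK343 replicate 1 (0.0586) or GSK343 replicate 2 (0.253) and with the GC trend removed (0.123), and that with X5050 without DMSO replicate 2 (0.0779) or X5050 replicate 1 (0.103). Both drugs for 24 h gave 19.2 and 19.7 CPM. The call of a fall there against DMSO was lost with the GC trend removed (-0.0357 log2, edgeR, adjusted p = 0.873). It was also lost without DMSO replicate 1 (-0.262 log2) and without replicate 1 (-0.550) or 2 (-0.587) at 24 h. The change between 24 and 72 h was 0.72 ± 0.17 (edgeR, adjusted p = 0.00196) as counted but -0.285 with the GC trend removed.

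FOXD3, a neural crest factor, had 1.71 and 2.37 CPM at 72 h with both drugs, against 0.32 and 0.501 CPM at 24 h. It rose by 2.31 ± 0.41 log2 between these times (edgeR, adjusted p = 0.00025). Its fall against DMSO at 24 h was lost with the GC trend removed (-0.999 log2, edgeR, adjusted p = 0.0706). That call was also lost without DMSO replicate 1 (-1.16 log2) or replicate 1 at 24 h (-1.21 log2). FOXA1, a second endoderm pioneer factor, ranged from 1.82 to 4.91 CPM in the drug experiment and had a single call, a rise of 0.83 ± 0.32 log2 between 24 and 72 h (adjusted p = 0.0461) that was lost without replicate 1 at 24 h (0.323) or at 72 h (0.332), by DESeq2 (0.0686) and with the GC trend removed (0.152).

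Among the T-box genes, TBX1 had 12.4 and 13.4 CPM with both drugs for 72 h, 15.6 and 17.2 CPM with X5050, 20.4 and 21.5 CPM with GSK343, and 24.5 and 22.9 CPM with DMSO. At 8 h with both drugs it had 8.79 and 10.9 CPM and at 24 h 5.54 and 5.15 CPM. All libraries with both drugs lay below DMSO, with the lowest values at 24 h. TBX1 fell by 1.27 ± 0.15 on the log2 scale at 8 h (edgeR, adjusted p = 9.36e-06), by 2.15 ± 0.16 at 24 h (adjusted p = 5.77e-08) and by 0.87 ± 0.15 at 72 h (adjusted p = 0.000326), calls that held without any 1 library. The change between 24 and 72 h was 1.28 ± 0.16 (adjusted p = 1.23e-05) as counted and -0.0475 with the GC trend removed. With X5050 alone TBX1 fell by 0.53 ± 0.15 (adjusted p = 0.03), which did not pass with DMSO replicate 1 left out (0.0702), nor without X5050 replicate 1 (0.244) or X5050 replicate 2 (0.0787).

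TBX15, a limb and skeletal factor, had 2.72 and 3.85 CPM with both drugs for 72 h, 3.8 and 9.69 CPM with X5050, 14.2 and 24.5 CPM with GSK343, and 11.6 and 8.56 CPM with DMSO. The combined-drug libraries were the lowest at 72 h apart from an overlap with X5050 replicate 1. TBX15 fell by 1.61 ± 0.40 on the log2 scale against DMSO (edgeR, adjusted p = 0.00775; 0.0862 without DMSO replicate 1 and 0.0765 without replicate 1 of both drugs), and was at -2.56 ± 0.40 against GSK343 alone (adjusted p = 0.000351), a call that held without any 1 library.

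TBX3, a limb and heart factor, had 3.15 and 1.91 CPM with both drugs for 72 h, against 0.826 and 1.16 CPM with DMSO, and rose by 1.34 ± 0.34 log2 (edgeR, adjusted p = 0.00588; 0.105 without replicate 1 of both drugs). TBX5, a forelimb and heart factor, stayed at or under 0.0309 CPM in the drug experiment. TBX2, a repressor of the same family, was counted with X5050 only among the drug libraries, at 1 and 5 counts against 0 with DMSO. For their sum the ratio was 1.73 with DMSO set to 3 counts, which is no lower bound.

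Of the SOX genes, SOX5, a cartilage and neuronal factor, changed in opposite directions over time. It had 10.6 and 8.92 CPM with DMSO, and with both drugs 35.5 and 30.6 CPM at 8 h, 7.27 and 6.78 CPM at 24 h, and 2.76 and 4.2 CPM at 72 h. The libraries at 8 h were the highest of the drug experiment and those at 72 h the lowest. SOX5 rose by 1.76 ± 0.20 log2 at 8 h over DMSO (edgeR, adjusted p = 6.29e-06) and fell by 1.48 ± 0.22 at 72 h (adjusted p = 9.02e-05), and both calls held without any 1 library.

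With X5050 alone for 72 h SOX5 had 13.6 and 18.2 CPM and with GSK343 alone 9.25 and 7.5 CPM, so the low level at 72 h was seen with both drugs together. The rise with X5050 was 0.70 ± 0.20 log2 (edgeR, adjusted p = 0.0341; 0.123 without DMSO replicate 2, 0.148 without X5050 replicate 2 and 0.0543 with unstranded counts). The interaction was -1.96 ± 0.30 (adjusted p = 0.00046) and held without any 1 library. SOX9, a cartilage and testis factor, had 4 and 1 counts and SOX2, a pluripotency and neural factor, 0 and 4 counts with both drugs for 72 h, and both had 0 with DMSO, so the SOX2 counts came from a single library.

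**Figure D3:**
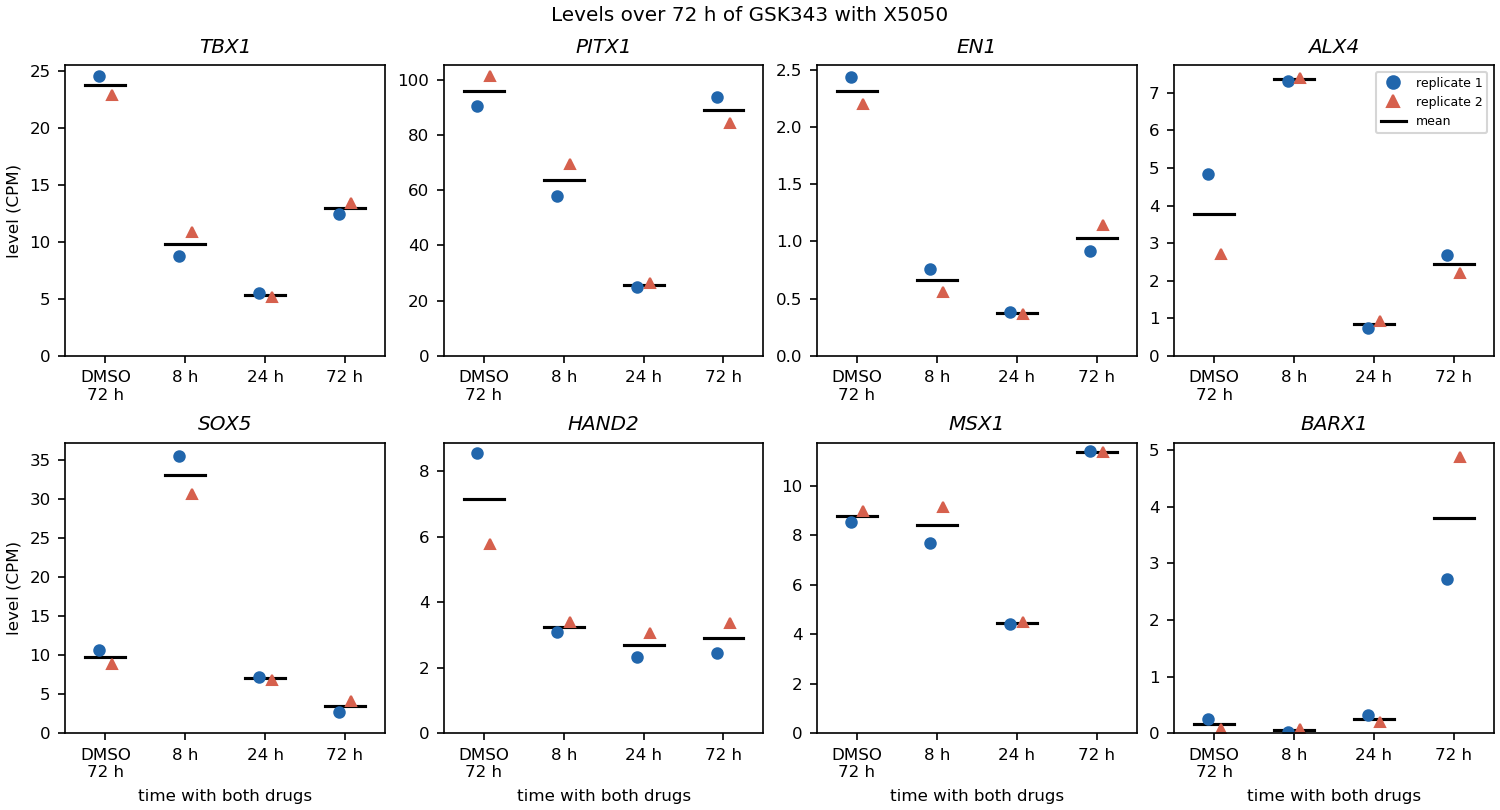
Each point is the CPM of 1 library with DMSO (72 h) or with both drugs for 8, 24 or 72 h, for TBX1, PITX1, EN1, ALX4, SOX5, HAND2, MSX1 and BARX1. TBX1 and PITX1 are lowest at 24 h, SOX5 is highest at 8 h, and BARX1 is at most 0.32 CPM at every point outside 72 h.

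Homeobox genes made up the rest of the GSK343 response. EN1, a midbrain-hindbrain factor, had 5.38 and 8.33 CPM with GSK343, 1.05 and 1.35 CPM with X5050, 0.92 and 1.14 CPM with both drugs for 72 h, and 2.44 and 2.2 CPM with DMSO. The GSK343 libraries lay above DMSO and every other drug library below it. EN1 rose by 1.57 ± 0.29 log2 with GSK343 (edgeR, adjusted p = 0.00258; 0.0801 without GSK343 replicate 2), fell by 1.16 ± 0.33 with both drugs for 72 h (adjusted p = 0.0122; 0.0972 without replicate 1 of both drugs) and was at -2.72 ± 0.32 with both drugs against GSK343 alone (adjusted p = 8.43e-06). The interaction was -1.78 ± 0.45 (adjusted p = 0.0127; 0.0583 without replicate 1 of both drugs and 0.0676 without GSK343 replicate 2). At 24 h EN1 had 0.384 and 0.368 CPM, a fall of 2.61 ± 0.37 on the log2 scale against DMSO (adjusted p = 3.71e-05) that held without any 1 library. EN2, its paralog, had 0.708 and 0.586 CPM with GSK343, against 0.289 and 0.2 CPM with DMSO, and was called in no comparison.

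ALX4, a limb and skull factor, had 8.22 and 8.89 CPM with GSK343, 2.65 and 3.25 CPM with X5050, 2.67 and 2.21 CPM with both drugs for 72 h, and 4.83 and 2.72 CPM with DMSO. It rose by 1.18 ± 0.26 log2 with GSK343 (edgeR, adjusted p = 0.00795; 0.0768 without DMSO replicate 2 and 0.0814 without GSK343 replicate 2). With both drugs it had 7.32 and 7.4 CPM at 8 h and 0.736 and 0.936 CPM at 24 h, so libraries lay above DMSO at the first time and below it at the second. The changes were 0.96 ± 0.26 at 8 h (adjusted p = 0.0072; 0.0737 without DMSO replicate 2) and -2.17 ± 0.31 at 24 h (adjusted p = 3.96e-05).

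DLX1 and DLX2, neighbouring forebrain genes, rose together with GSK343 and parted with both drugs. DLX1 had 38.5 and 39.2 CPM with GSK343, 21 and 28.4 CPM with X5050, 6.7 and 8.66 CPM with both drugs for 72 h, and 25.8 and 11 CPM with DMSO. DLX2 had 18.1 and 21.2 CPM with GSK343, 5.76 and 11 CPM with X5050, 19.2 and 14.1 CPM with both drugs for 72 h, and 9.66 and 5.44 CPM with DMSO. DLX1 was thus lowest, and DLX2 above DMSO, in the same combined-drug libraries; the 2 DMSO libraries of DLX1 differed by more than 1 log2 unit.

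DLX1 rose by 1.08 ± 0.30 log2 with GSK343 (edgeR, adjusted p = 0.0392). Adjusted p was 0.0673 when DMSO replicate 2 was left out, 0.12 or 0.166 when GSK343 replicate 1 or 2 was, and 0.0532 with the replicate number as a block. It fell by 1.25 ± 0.32 with both drugs (adjusted p = 0.0101; 0.0533 without DMSO replicate 1 and 0.0895 without replicate 1 of both drugs). Its interaction of -2.76 ± 0.44 (adjusted p = 0.00174) and its value of -2.33 ± 0.32 against GSK343 alone (adjusted p = 0.000185) held without any 1 library. DLX2 rose by 1.38 ± 0.29 with GSK343 (adjusted p = 0.00731; 0.0712 without DMSO replicate 2 and 0.0739 without GSK343 replicate 2) and by 1.14 ± 0.29 with both drugs (adjusted p = 0.00745; 0.0695 without DMSO replicate 2 and 0.0746 without replicate 1 of both drugs).

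MSX1, a craniofacial factor, had 11.7 and 16 CPM with GSK343, 6.07 and 6.91 CPM with X5050, 11.4 and 11.4 CPM with both drugs for 72 h, and 8.55 and 9 CPM with DMSO. The GSK343 and the combined-drug libraries lay above DMSO and the X5050 libraries below it. MSX1 rose by 0.66 ± 0.19 log2 with GSK343 (edgeR, adjusted p = 0.0317). Leaving out DMSO replicate 1 or 2 gave adjusted p of 0.058 or 0.0849, leaving out GSK343 replicate 2 gave 0.405, and removing the GC trend gave 0.135. At 24 h with both drugs it had 4.42 and 4.51 CPM and fell by 0.97 ± 0.20 on the log2 scale against DMSO (adjusted p = 0.000896).

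PITX1 had 61 and 56.5 CPM with GSK343, 94.5 and 56.4 CPM with X5050, 93.9 and 84.3 CPM with both drugs for 72 h, and 90.5 and 101 CPM with DMSO. It was the member that fell with GSK343, by 0.71 ± 0.18 on the log2 scale (edgeR, adjusted p = 0.0219). Adjusted p was 0.204 when DMSO replicate 2 was left out and 0.0821 or 0.145 when GSK343 replicate 1 or 2 was. With both drugs it had 58 and 69.6 CPM at 8 h and 24.8 and 26.5 CPM at 24 h, the lowest libraries of the experiment. The fall at 24 h was 1.90 ± 0.19 on the log2 scale (adjusted p = 2.95e-06) and held without any 1 library; the change at 8 h was -0.59 ± 0.18 (adjusted p = 0.0178) as counted and 0.144 with the GC trend removed. At 8 h the call was also lost without replicate 1 at that time (0.177), DMSO replicate 1 (0.0595) or DMSO replicate 2 (0.14).

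BARX1, a stomach and craniofacial homeobox factor, had 2.72 and 4.88 CPM with both drugs for 72 h, 0.213 and 0.339 CPM with GSK343, 0.203 and 0.219 CPM with X5050, and 0.248 and 0.08 CPM with DMSO. The combined-drug libraries at 72 h stood clear of all other drug libraries. BARX1 rose by 4.51 ± 0.55 log2 over DMSO (edgeR, adjusted p = 1.12e-05), by 3.75 ± 0.49 over GSK343 alone (adjusted p = 2.42e-05) and by 4.15 ± 0.52 over X5050 alone (adjusted p = 2.37e-05), calls that held without any 1 library. The interaction was 3.39 ± 0.92 (adjusted p = 0.0181; 0.239 without DMSO replicate 1, 0.0744 without replicate 2 of both drugs and 0.0547 without GSK343 replicate 1).

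Among the other homeobox members, OTX1 and IRX5 passed the test at 24 h with both drugs and LHX6 between 24 and 72 h. OTX1, a forebrain factor, had 2.78 and 1.7 CPM with both drugs for 24 h, against 6.98 and 6.4 CPM with DMSO, and fell by 1.57 ± 0.25 on the log2 scale (edgeR, adjusted p = 0.000107). IRX5, a heart and retina factor, had 2.18 and 1.97 CPM at 24 h, against 4.25 and 3.4 CPM with DMSO, and fell by 0.88 ± 0.24 (adjusted p = 0.00755; 0.0736 without replicate 2 at 24 h, 0.0537 without DMSO replicate 1 and 0.057 with the GC trend removed). LHX6, an interneuron factor, ranged from 8.25 to 18.5 CPM over the 20 libraries and had 1 call, a rise of 0.63 ± 0.21 between 24 and 72 h (adjusted p = 0.0215) that was lost without replicate 1 at 24 h (0.0522), replicate 2 at 24 h (0.159) or replicate 2 at 72 h (0.131), and with the GC trend removed (0.456).

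Near the limit of detection, NKX2-2, an oligodendrocyte and pancreas factor, had 0.425 and 0.648 CPM with GSK343, against 0.0413 and 0.08 CPM with DMSO. That was 33 counts against 3, a ratio of 8.93 with an exact 95% counting interval of 2.80 to 45.5, and the fit did not pass the test (adjusted p = 0.0512). With both drugs for 72 h it had 3 counts, against 33 with GSK343 alone, a ratio of 0.112 with an interval of 0.0221 to 0.358 (adjusted p = 0.0203; 0.166 without replicate 1 of both drugs, 0.133 without GSK343 replicate 2 and 0.101 by DESeq2). LHX2, a forebrain and hair follicle factor, had 16 counts with GSK343, against 0 with DMSO. The ratio was 4.33 with DMSO set to 3 counts, which is no lower bound.

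Of the helix-loop-helix genes, HAND2, a heart and sympathetic neuron factor, had 2.45 and 3.36 CPM with both drugs for 72 h, 4.75 and 5 CPM with GSK343, 6.95 and 6.65 CPM with X5050, and 8.55 and 5.76 CPM with DMSO. With both drugs it had 3.1 and 3.39 CPM at 8 h and 2.34 and 3.07 CPM at 24 h, so it lay below DMSO in all 6 libraries with both drugs. It fell on the log2 scale by 1.14 ± 0.25 at 8 h (edgeR, adjusted p = 0.00172), by 1.40 ± 0.26 at 24 h (adjusted p = 0.000372) and by 1.29 ± 0.26 at 72 h (adjusted p = 0.00098), calls that held without any 1 library. HAND1, its heart and trophoblast paralog, was counted only with both drugs for 72 h, at 6 and 1 counts, against 0 with DMSO. For their sum the ratio was 2.34 with DMSO set to 3 counts, which is no lower bound. TWIST1, a mesenchyme factor, stayed between 0.0334 and 0.463 CPM in the drug experiment and was called nowhere.

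ZIC2, a dorsal neural tube zinc-finger factor, ranged from 12.4 to 20.2 CPM in the drug experiment and fell by 0.47 ± 0.17 on the log2 scale at 24 h (edgeR, adjusted p = 0.03; 0.127 without replicate 1 or 2 at 24 h, 0.364 without DMSO replicate 2, 0.414 with the GC trend removed). TFAP2A, a neural crest and epidermis factor, had 0.256 and 0.134 CPM at 24 h with both drugs, against 1.07 and 0.8 CPM with DMSO, and fell by 2.23 ± 0.47 (adjusted p = 0.00118), a call that held without any 1 library.

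Against EV cells, S1KO cells had 5 of 27 tested members higher and 1 lower, with 2.44% of all 21284 genes higher and 1.23% lower (3.67% either way). S2KO cells had 2 higher and 0 lower, with 1.45% and 0.554% of all genes (2.01% either way), and without adjustment edgeR gave 6 higher and 0 lower there and DESeq2 with adjustment 3 higher and 0 lower. DKO cells had 7 higher and 1 lower, with 5.41% and 3.35% of all genes (8.76% either way). Leaving out single libraries took the calls to 1 to 3 in S1KO, 1 in S2KO and 2 to 6 in DKO cells, lowest without S1KO replicate 2 and DKO replicate 1; DESeq2 gave 10 in S1KO and 12 in DKO, and the replicate number as a block gave 10 in each. Over 23176 genes DESeq2 called 988 higher and 666 lower in S1KO and 1705 higher and 1407 lower in DKO cells. The members' median log2 fold change was 1.01 in S1KO, 0.47 in S2KO and 0.34 in DKO cells. It was 0.54 in S1KO without S1KO replicate 2, and 1.59 in S1KO and 1.25 in DKO cells without EV replicate 2. Their summed level was 203 and 269 CPM in S1KO, 191 and 212 CPM in S2KO, 237 and 230 CPM in DKO, and 141 and 147 CPM in EV cells, so all 6 excised libraries lay above both EV libraries. Part of that order rested on PITX1: without it the sums were 135 and 216 CPM in S1KO, 119 and 167 CPM in S2KO, 134 and 118 CPM in DKO, and 96.0 and 121 CPM in EV cells, and S2KO and DKO each had a library below the higher EV library.

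MSX1 was higher in all 3 excised groups. It had 5.69 and 6.32 CPM in S1KO, 6.48 and 7.31 CPM in S2KO, 7.04 and 6.56 CPM in DKO, and 0.797 and 1.08 CPM in EV cells. The excised libraries lay close together and clear of EV, and the rises were 2.68 ± 0.26 log2 in S1KO (edgeR, adjusted p = 0.00333), 2.88 ± 0.26 in S2KO (adjusted p = 0.00458) and 2.86 ± 0.26 in DKO (adjusted p = 0.00163). They held without any 1 library; with S2KO and EV libraries alone in the fit, adjusted p in S2KO was 0.129.

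GATA6 had 0.41 and 0.596 CPM in S1KO, 0.811 and 0.841 CPM in S2KO, 0.325 and 0.129 CPM in DKO, and 0.0379 and 0 CPM in EV cells. With 96, 127 and 27 counts against 3 in EV, the ratios were 27.2 (exact 95% counting interval 9.03 to 134) in S1KO, 44.8 (15 to 220) in S2KO and 12.2 (3.75 to 62.7) in DKO. The test called S1KO (edgeR, adjusted p = 0.0469) and S2KO (adjusted p = 0.0437), and both calls were lost when libraries were left out: adjusted p was 0.143 without S1KO replicate 1, 0.194 without S1KO replicate 2 and 0.123 without EV replicate 2 for S1KO, and from 0.0575 to 0.109 without any 1 S2KO or EV library for S2KO.

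TBX3 had 5.63 and 4.39 CPM in DKO, 0.779 and 0.447 CPM in S1KO, 0.335 and 0.0789 CPM in S2KO, and 0.0506 and 0.0836 CPM in EV cells. DKO stood clear of the other groups, with a rise of 6.18 ± 0.77 log2 over EV (edgeR, adjusted p = 0.00528) that held without any 1 library. TBX5 had 0.291 and 0.129 CPM in DKO and 0 in both EV libraries, 25 counts against 0. With EV set to the limit for a count of 0, the ratio was 11.3, which is no lower bound. The TBX5 call (edgeR, adjusted p = 0.0462) was lost without DKO replicate 2 (7.56 log2). It was also lost without EV replicate 1 (7.05 log2) or EV replicate 2 (7.04 log2). ZIC1, a cerebellar factor, had 1.47 and 1.53 CPM in DKO and 0.0506 and 0 CPM in EV cells (5.83 ± 0.90 log2, adjusted p = 0.0112; 0.0679 without DKO replicate 1 and 0.0705 without DKO replicate 2).

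TBX1 had 22.8 and 21.7 CPM in S1KO, 11.8 and 9.86 CPM in S2KO, 30.5 and 22.3 CPM in DKO, and 9.13 and 9.99 CPM in EV cells. S1KO and DKO lay above EV while S2KO overlapped with it, and the rises were 1.22 ± 0.21 log2 in S1KO (edgeR, adjusted p = 0.0292; 0.116 to 0.166 without any 1 S1KO or EV library) and 1.46 ± 0.21 in DKO (adjusted p = 0.0091; 0.0798 without DKO replicate 1). HAND2 had 1.07 and 0.851 CPM in S1KO, 5.24 and 3.61 CPM in S2KO, 1.88 and 1.62 CPM in DKO, and 5.65 and 5.28 CPM in EV cells. It was the member that fell, by 2.51 ± 0.30 on the log2 scale in S1KO (adjusted p = 0.00791; 0.0594 without S1KO replicate 1 and 0.0802 without S1KO replicate 2) and by 1.64 ± 0.30 in DKO (adjusted p = 0.0191; 0.0608 to 0.186 without any 1 DKO or EV library).

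EN1 had 1.34 and 1.76 CPM in S1KO, 0.412 and 0.973 CPM in S2KO, 0.907 and 1.16 CPM in DKO, and 0.24 and 0.263 CPM in EV cells. Every excised library lay above EV; the rises were called in S1KO (2.61 ± 0.48 log2, edgeR adjusted p = 0.037; 0.12 to 0.176 without any 1 S1KO or EV library) and DKO (2.03 ± 0.48, adjusted p = 0.0487; 0.131 to 0.258 without any 1 DKO or EV library). PITX1 had 103 and 112 CPM in DKO, against 44.9 and 26 CPM in EV cells, and rose by 1.60 ± 0.33 log2 (adjusted p = 0.0331; 0.148 without DKO replicate 1, 0.181 without DKO replicate 2 and 0.132 without EV replicate 2). SOX5 had 28.7 and 60.9 CPM in S1KO, against 14.7 and 13.1 CPM in EV cells, and rose by 1.68 ± 0.34 log2 (adjusted p = 0.0475; 0.104 without S1KO replicate 2, 0.138 without EV replicate 1 and 0.208 without EV replicate 2).

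**Figure D4:**
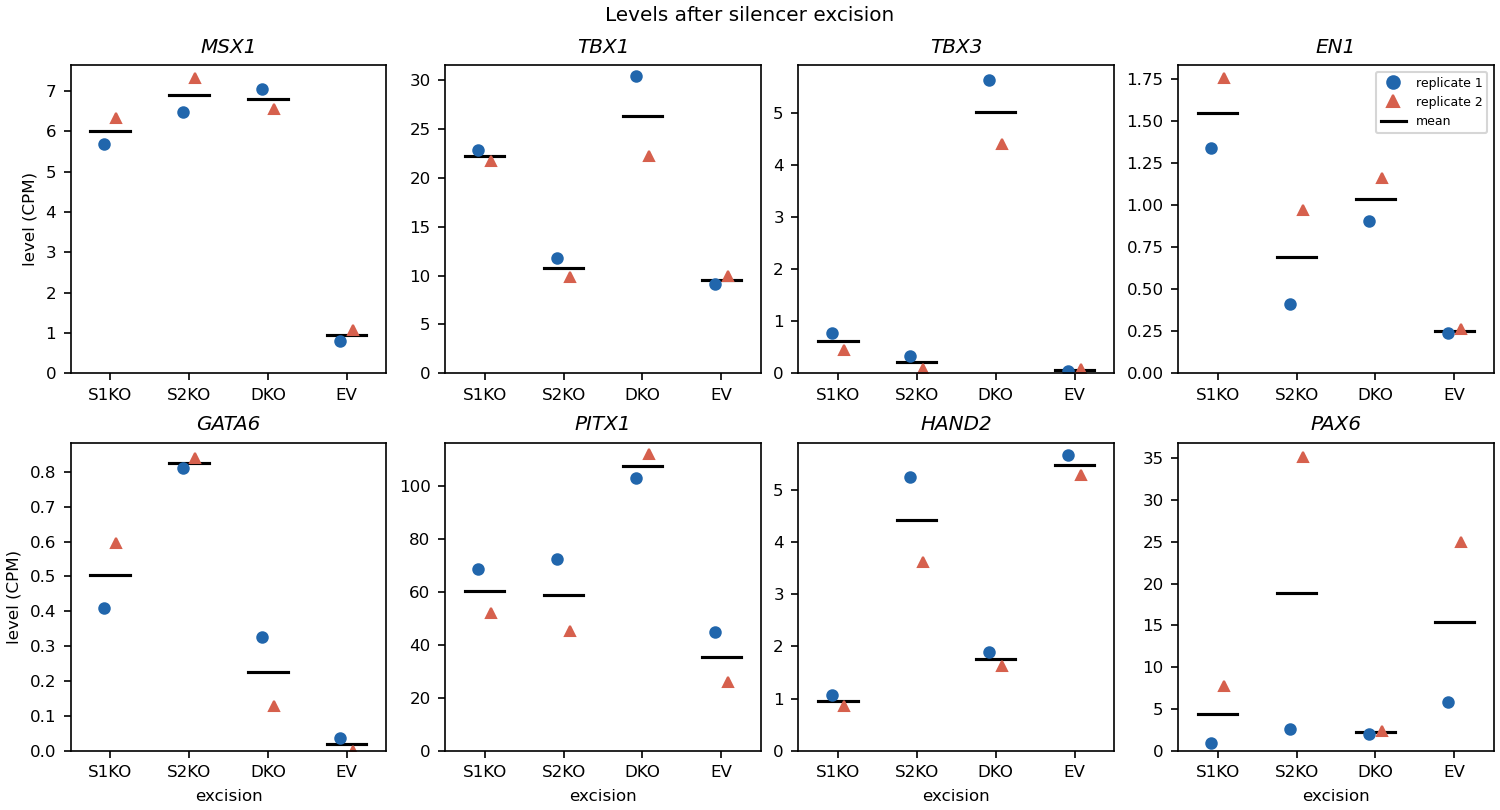
Points are the CPM of each library in S1KO, S2KO, DKO and EV cells for MSX1, TBX1, TBX3, EN1, GATA6, PITX1, HAND2 and PAX6. MSX1 lies between 5.69 and 7.31 CPM in the 6 excised libraries and at 0.797 and 1.08 CPM in EV; the PAX6 points of the 2 replicates are far apart in EV and S2KO.

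Of 110 further developmental transcription factor genes in the tables, 34 were tested in the drug experiment, where 6 rose and 1 fell with GSK343, 4 rose and 17 fell with both drugs for 24 h, and 17 rose and 2 fell between 24 and 72 h with both drugs. Over all genes the shares were 9.12% and 3.31% with GSK343, 22% and 21.1% at 24 h, and 24.1% and 21.8% between 24 and 72 h. DLX4, a placental homeobox gene, had 5.56 and 9.2 CPM with GSK343, against 1.28 and 2 CPM with DMSO, and rose by 2.17 ± 0.37 log2 (edgeR, adjusted p = 0.00119). SOX8, a glial and testis gene of the SOX family, had 3.94 and 2.86 CPM with both drugs for 72 h, 1.66 and 0.648 CPM with GSK343, and 0 and 0.04 CPM with DMSO. POU4F1, a sensory neuron factor, had 3.14 and 2.51 CPM at 24 h, against 11.7 and 11 CPM with DMSO, and fell by 2.01 ± 0.21 on the log2 scale (adjusted p = 1.86e-06). Among 17 tested HOX genes, the regulators of body axis position, 0 rose and 11 fell at 24 h, with 22% of all genes risen and 21.1% fallen, where edgeR without adjustment also gave 0 higher and 11 lower and DESeq2 0 higher and 9 lower.

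Of 18 long noncoding RNA genes antisense to or beside members, 6 were tested in the drug experiment. With both drugs for 72 h 0 rose and 4 fell, when 19.2% of all genes rose and 17.3% fell. There edgeR without adjustment gave 1 higher and 5 lower and DESeq2 with adjustment 0 higher and 4 lower. HAND2-AS1, antisense to HAND2, had 1.4 and 0.801 CPM with both drugs for 72 h, against 4.63 and 2.32 CPM with DMSO, and fell by 1.66 ± 0.38 on the log2 scale (edgeR, adjusted p = 0.00274). In the excision experiment it had 0.574 and 0.638 CPM in S1KO, 0.531 and 0.969 CPM in DKO, and 3.09 and 3.32 CPM in EV cells. TBX5-AS1 had 0.394 and 0.582 CPM in DKO and 0 in both EV libraries. Exons of 18 members overlap a gene on the other strand. The drug counts are stranded, but the strand setting of the excision counts is not given in the sources used here. Reads from the overlapping parts may thus not be told apart in the excision experiment. This concerns HAND2 and HAND2-AS1, TBX5 and TBX5-AS1, GATA6 and GATA6-AS1, TBX1 and GNB1L, PITX1 and AC008406.3, and ZIC1 and ZIC4.

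Markers of other cell types moved with some groups, and in bulk samples fewer cells of a type and less RNA per cell cannot be told apart. The summed level of 12 erythroid markers was 6094 and 4785 CPM with both drugs for 72 h, 6139 and 3090 CPM with X5050, 2349 and 1769 CPM with GSK343, and 2413 and 2583 CPM with DMSO, and it lay between 5172 and 5734 CPM with both drugs for 8 or 24 h. Such a sum weighs abundant genes most. With both drugs 4 of the 12 rose and 7 fell at 24 h, 7 rose and 1 fell at 8 h, and 6 rose and 5 fell at 72 h. Of all genes, 43.1% were called in either direction at 24 h, 43% at 8 h and 36.4% at 72 h. In the excision experiment it was 16888 and 9451 CPM in S1KO, 13024 and 6081 CPM in S2KO, 17224 and 20093 CPM in DKO, and 6501 and 2840 CPM in EV cells. The sum of 6 myeloid markers was 90.1 and 73.3 CPM in S1KO, 21.3 and 23.6 CPM in S2KO, 81.8 and 69.5 CPM in DKO, and 49.3 and 52.7 CPM in EV cells. The sum of 5 epithelial markers was 296 and 261 CPM with both drugs for 72 h, against 108 and 138 CPM with DMSO. Of the 5, 2 were tested in that comparison, and 1 rose and 1 fell. Over the drug libraries KRT19 lay between 64.2 and 270 CPM and EPCAM between 24.9 and 65.9 CPM. The summed level of 7 fibroblast markers was 22.2 and 22 CPM with GSK343, against 7.02 and 5.8 CPM with DMSO, and 131 and 109 CPM in DKO, against 3.28 and 2.56 CPM in EV cells; most of it was COL1A1 in the drug experiment and COL1A2 in DKO cells, PDGFRA was at 0 in every drug library, and LUM was at 0 in DKO and EV cells. Among the neural markers DCX was at 0 in every library. The part of these markers in the members' changes was not tested.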

How the data were processed

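The drug libraries were deposited as counts per gene by strand, and the reverse-strand counts were used, which exceeded the forward-strand counts by 8.01 to 9.77 times. Rows naming no gene, 34 to 50.7% of the drug tables' totals, were left out. The excision libraries were deposited as estimated counts and TPM per transcript. Estimated counts were summed per gene with GENCODE 29 and rounded to whole numbers, with 87.8 to 90.4% of counts matched. The authors' TPM values were summed per gene for levels compared between genes. The submitters' processing notes name hg19, Trimmomatic 0.38, kallisto 0.44.0, sleuth 0.29.0, STAR 2.7.3a and DESeq2 0.29.0.

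edgeR 4.0.16 in R 4.3.3 (filterByExpr, TMM, quasi-likelihood fit, robust) was fitted to all groups of each experiment, with Benjamini-Hochberg adjustment over all 19224 or 21284 genes tested and a threshold of 0.05. The SE is the absolute log2 fold change divided by the square root of F, an approximation. CPM are counts scaled to the TMM-adjusted library size. The biological coefficient of variation was 0.129 in the drug and 0.323 in the excision experiment. Shares and intervals cover counting error only. With 2 libraries against 2, an exact permutation test of a single value could not go below 0.333, so none was run. Scripts were tested on simulated data. DESeq2 1.42.0 was run as an alternative, as were unstranded counts, RLE size factors, no count filter, length-scaled TPM, a GC correction (loess, span 0.3), smaller fits, a replicate block and leaving out each library.

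The members and lists were chosen with earlier results of these data known. The members named are those called in any comparison or reaching 1 CPM, and the silent ones. Promoters were shown for the 3 largest rises with GSK343 and the 2 members with the most CPM with DMSO that were not called.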

Additional observations from a re-analysis of the deposited data

Results flagged for a closer look

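For 9 members the effect of both drugs at 72 h differed from the sum of the single-drug effects on the log2 scale (edgeR, interaction). The interaction was 3.39 for BARX1 and 0.95 for PITX1, above the sum, and -2.76 for DLX1, -1.97 for TBX15, -1.96 for SOX5, -1.80 for FOXA2, -1.78 for EN1, -1.45 for ALX4 and -1.11 for FOXL2, below it. The calls of DLX1, FOXL2 and SOX5 held without any 1 library. That of PITX1 was lost without DMSO replicate 2 (adjusted p = 0.109), replicate 1 of both drugs (0.0798), GSK343 replicate 1 (0.0715), GSK343 replicate 2 (0.0973) or X5050 replicate 2 (0.061), that of ALX4 without replicate 2 of both drugs (0.0682), and that of TBX15 when any of 5 libraries was left out (0.0577 and 0.134 for DMSO replicates 1 and 2, 0.106 for replicate 1 of both drugs, 0.0679 for GSK343 replicate 2 and 0.0685 for X5050 replicate 2).

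With both drugs, ALX4 was above DMSO at 8 h and below it at 24 h, by -2.17 on the log2 scale. SOX5 was above DMSO at 8 h and below it at 72 h, by -1.48. Each direction passed the test against the same DMSO libraries, and the difference between the times was not tested by itself for these pairs.

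Counts of the opposite strand column were not used for the results. Among members they rose over DMSO in 2 cases, and 17 further changes against DMSO that passed the test were falls. The shares of all genes called on that strand were not counted, so these numbers were not set against them. The rises were 1.79 log2 for EN1 with GSK343 (edgeR, adjusted p = 0.0254) and 7.18 log2 for BARX1 with both drugs for 72 h (adjusted p = 0.0012). The falls were those of FOXD3, EN1, DLX1, HAND2 and PAX9 at 72 h, FOXD3, EN1, FOXL2, HAND2, PITX1, ZIC2 and TBX1 at 24 h, and FOXD3, PAX8, EN1, HAND2 and TBX1 at 8 h with both drugs. On that strand BARX1 had 9 and 23 counts with both drugs for 72 h, against 0 and 0 with DMSO, so its value is no bound.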

How the results depend on the processing

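Of 114 member calls over the 12 comparisons, 107 held with DESeq2, 113 with RLE size factors and 107 without the count filter. With the GC trend removed, 89 held, 22 were lost and 3 turned: PITX1 at 8 h against DMSO (0.144, and 0.140 with the replicate block), FOXL2 between 24 and 72 h (-0.285 and -0.283) and TBX1 between 24 and 72 h (-0.0475 and -0.0505). That removal moved the median of all genes to -0.154 with GSK343 and -0.136 with both drugs at 72 h. The cause of these moves was not tested. When each library was left out in turn, 49 of the 114 calls held throughout. The counts of members called then ranged from 1 to 10 with GSK343, 1 to 3 with X5050, 5 to 7, 10 to 15 and 4 to 10 with both drugs for 8, 24 and 72 h, 10 to 17 and 6 to 9 for both drugs against GSK343 and X5050, 5 to 10 for the interaction, 12 to 14 between 24 and 72 h, and 1 to 3, 1 to 1 and 2 to 6 in S1KO, S2KO and DKO cells.

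Fitting the 72 h groups alone gave 6 calls with GSK343 and 1 with X5050, and the compared groups alone gave 6 and 0, and 2 in S1KO and 0 in S2KO cells, where fewer libraries estimate the spread. Between 24 and 72 h, 10 calls remained in number with the GC trend removed, with or without the block. In S1KO cells there were 10 calls with DESeq2, 10 with the replicate block and 3 with length-scaled TPM, and in S2KO cells 1 with length-scaled TPM. Without the DKO libraries in the fit, an alternative chosen after seeing the data like the GC correction of the excision fits, S1KO had 2 and S2KO 1. Over all genes the block gave 1348 calls against 781 in S1KO, 716 against 427 in S2KO and 3172 against 1865 in DKO cells. Same-numbered S1KO, S2KO and EV libraries deviated together (correlations 0.488 to 0.622) and DKO libraries did not (-0.0843 to -0.0591), and with 2 numbers and no label of a shared batch they were not taken as pairs. Of the 114 calls, 112 held with the block. Silent members numbered 6 when defined by 0 counts everywhere, 12 under 0.1 CPM and 8 unstranded. All-gene counts over the alternatives ran from 739 to 4287 with GSK343 (2390 as reported), 617 to 3121 with X5050 (2415) and 0 to 1082 in S2KO cells (427). In 20 members, 9 of them silent, counts were too low for a test in both experiments, and changes of a few counts could not be detected there.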
